A study of Mus musculus with 12 samples.

Results

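The liver breaks down most amino acids of the diet, and 55 genes of this work were examined in livers and liver tumors of mice. They were chosen by name, from what their proteins do, and the rule uses no measured value, but earlier results of these data were known at that time. All 55 were found among the 26301 genes of the count table, and all 55 passed the filter on low counts that left 13882 genes for testing. They hold 8 genes of the urea cycle and its mitochondrial carriers, 4 of glutamine, ornithine and proline breakdown, 4 of histidine, 4 of tyrosine, 5 of tryptophan and lysine, 4 of serine, threonine and glycine, 2 general transaminases, 15 of branched-chain amino acid and propionate breakdown, and 9 of methionine, choline and sulfur amino acid metabolism.

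Amino acid breakdown releases nitrogen as ammonia or as glutamate, and the urea cycle turns that nitrogen into urea, partly in mitochondria and partly in the cytosol. In the liver lobule these tasks are divided by position. Hepatocytes near the portal vein (periportal) are rich in urea cycle enzymes, glutaminase 2 and enzymes of histidine and serine breakdown, whereas a thin layer around the central vein (pericentral) makes glutamine with glutamine synthetase (Glul) and is rich in ornithine aminotransferase (Oat). The pericentral pattern is kept up by Wnt/beta-catenin signaling, and Glul, Axin2, Lgr5 and Rhbg are commonly used as its markers.

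Poly(A) RNA was sequenced from 12 libraries, 4 in each of 3 groups. Controls were non-tumor livers of wild-type mice. DKO libraries came from spontaneous liver tumors. In these mice the atypical E2F repressors E2f7 and E2f8 had been deleted by Alb-Cre, a Cre recombinase under the albumin promoter that acts in hepatocytes. In the TKO tumors Alb-Cre deleted Rb1, the retinoblastoma gene, as well. The titles of the control livers call them adult, whereas the titles of the tumors give no age. The mice came from a study of ageing animals, on a background bred toward FVB. The study was set up to ask what loss of Rb1 adds to loss of the atypical E2Fs in the liver. No tumor of another genotype and no non-tumor liver of the knockout mice was analysed here, so the effect of the deletions and the state of being a tumor cannot be told apart. The study's methods give 4 livers per condition, and p-values measure the spread between these livers.

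Total counts were 9165812 to 16190797 in the controls, 13156779 to 16424973 in DKO and 10455159 to 16313303 in TKO. Values below are CPM, the counts of a gene scaled to a common library size, with TMM, a factor per library that evens out composition, since albumin alone took 4.82% to 22.7% of the counts. Rb1 averaged 4.45 ± 0.975 CPM (SD, n = 4) in TKO, 9.003 ± 1.52 in DKO and 8.29 ± 1.75 in the controls. E2f7 was counted 4 to 24 times per library, and E2f8 averaged 20.5 ± 17.2 CPM in DKO, 26.1 ± 18.5 in TKO and 6.24 ± 1.92 in the controls. Which exons were deleted is not given in the sources used here, so counts over whole genes do not check the labels for E2f7 and E2f8, and groups are named as labelled. Y-linked genes were expressed in all 12 libraries, and Xist was counted 1 to 6 times. The hepatocyte genes used as a check, 12 in number, were well expressed in every library, and edgeR called none of them in any comparison with the controls, while DESeq2 called Ttr and Cebpa, 2 of them, lower in DKO (4.75% of all genes). Since these are bulk samples, fewer cells of a type and less RNA per cell cannot be told apart.

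Most of the 55 genes had lower values in tumors of either genotype. In DKO against control, the fitted log2 fold change was below 0 for 51 of 55 genes, beside 48.4% of all tested genes, and its median was -0.66, beside 0.02 over all tested genes. In TKO against control it was below 0 for 52 of 55, beside 47.5%, with a median of -0.52, beside 0.02. The 2 comparisons share the 4 control livers. Single genes seldom passed the test: edgeR (quasi-likelihood fit, Benjamini-Hochberg adjusted p under 0.05) called 1 of the 55 lower and 0 higher in DKO, beside 2.42% of all tested genes in either direction and 1.01% lower. It called 0 in TKO, beside 0.0864% of all genes in either direction and 0.036% lower, and 3 lower and 0 higher for the mean of both genotypes against control, beside 2.48% in either direction and 1.22% lower. At an unadjusted p under 0.05, 24 genes were lower in DKO (11.1% of all genes), 20 in TKO (6.33%) and 27 for all tumors (10.2%), and 0 were higher.

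**Figure D1:**
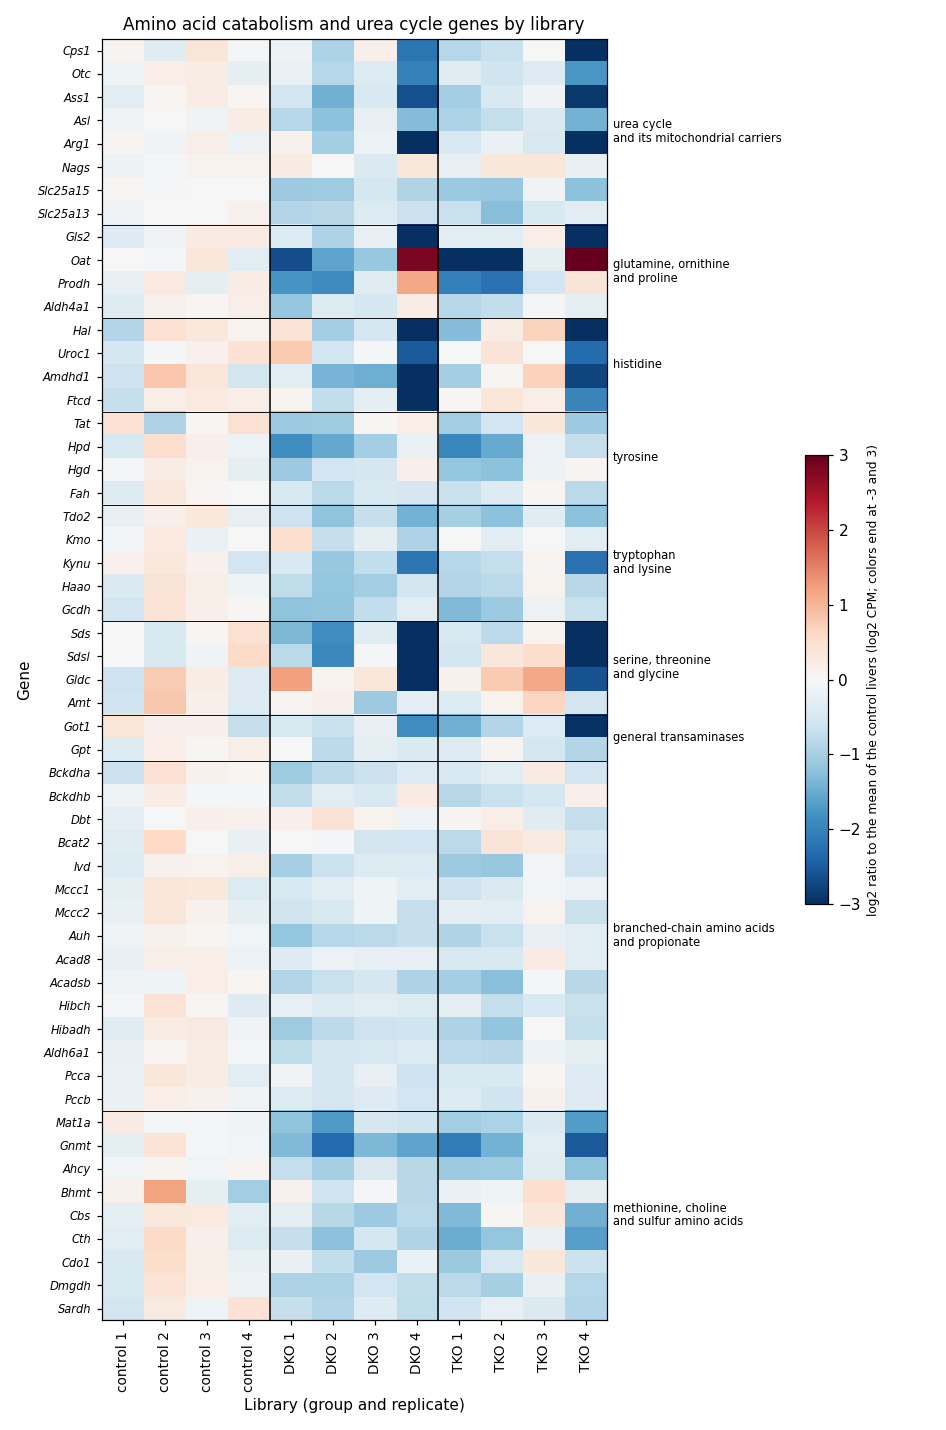
Level of each of the 55 genes (rows, grouped by pathway) in each of the 12 libraries (columns), as the log2 ratio of its CPM to the mean of the 4 control livers, with blue for lower and red for higher. The tumor columns are mostly blue, TKO 3 is nearly as pale as the controls, and DKO 4 and TKO 4 are darkest in most urea cycle, histidine and serine rows and red for Oat.

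Counting only genes in which the groups did not overlap gave a like picture. All 4 DKO values lay below all 4 control values for 17 of 55 genes, beside 7.3% of all tested genes. All 4 TKO values did so for 10 of 55, beside 3.29%. All 8 tumors lay below all 4 controls for 8 genes, beside 1.46%: Asl, Slc25a15, Slc25a13, Tdo2, Auh, Mat1a, Gnmt and Ahcy. In 0 of the 55 genes did all values lie above all controls, beside 8.87% of all genes in DKO, 4.38% in TKO and 2.2% for all 8 tumors. DESeq2, with an adjusted p under 0.05, called 15 genes lower in DKO (4.75% of all genes), 9 in TKO (1.49%) and 18 for all tumors (4.06%), with 0 higher, and gave no adjusted p for Oat.

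The tumors were not alike. The median log2 ratio of the 55 genes to the control mean was -0.59, -0.83, -0.43 and -0.69 in DKO 1 to 4 and -0.82, -0.61, -0.05 and -0.82 in TKO 1 to 4. Below the lowest control lay 34, 46, 35 and 39 of the 55 genes in DKO 1 to 4 and 43, 38, 15 and 46 in TKO 1 to 4, beside 19.8% to 26.6% of all genes. TKO 3 thus stood near the controls, with 35 genes inside the control range. Without TKO 3, edgeR called 9 genes lower in DKO (1.95% of all genes), 7 in TKO (0.522%) and 16 for all tumors (3.2%). Without both DKO 4 and TKO 4, a choice made after seeing the data, it called 1 (0.336%), 0 (0.0573%) and 2 (0.522%). With any single library other than TKO 3 left out, edgeR called 0 to 2 in DKO, 0 in TKO and 0 to 6 for all tumors. Of all genes it called 0% to 2.93%, 0% to 0.129% and 0% to 2.83%, in either direction. The count was 0 in DKO without control 2, control 3, control 4, DKO 1, DKO 2 or DKO 4, where 0% to 0.0498% of all genes were called. It was 0 for all tumors without any 1 of the 4 controls, DKO 1, DKO 2, TKO 1 or TKO 2, where 0% to 0.134% of all genes were called.

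**Figure D2:**
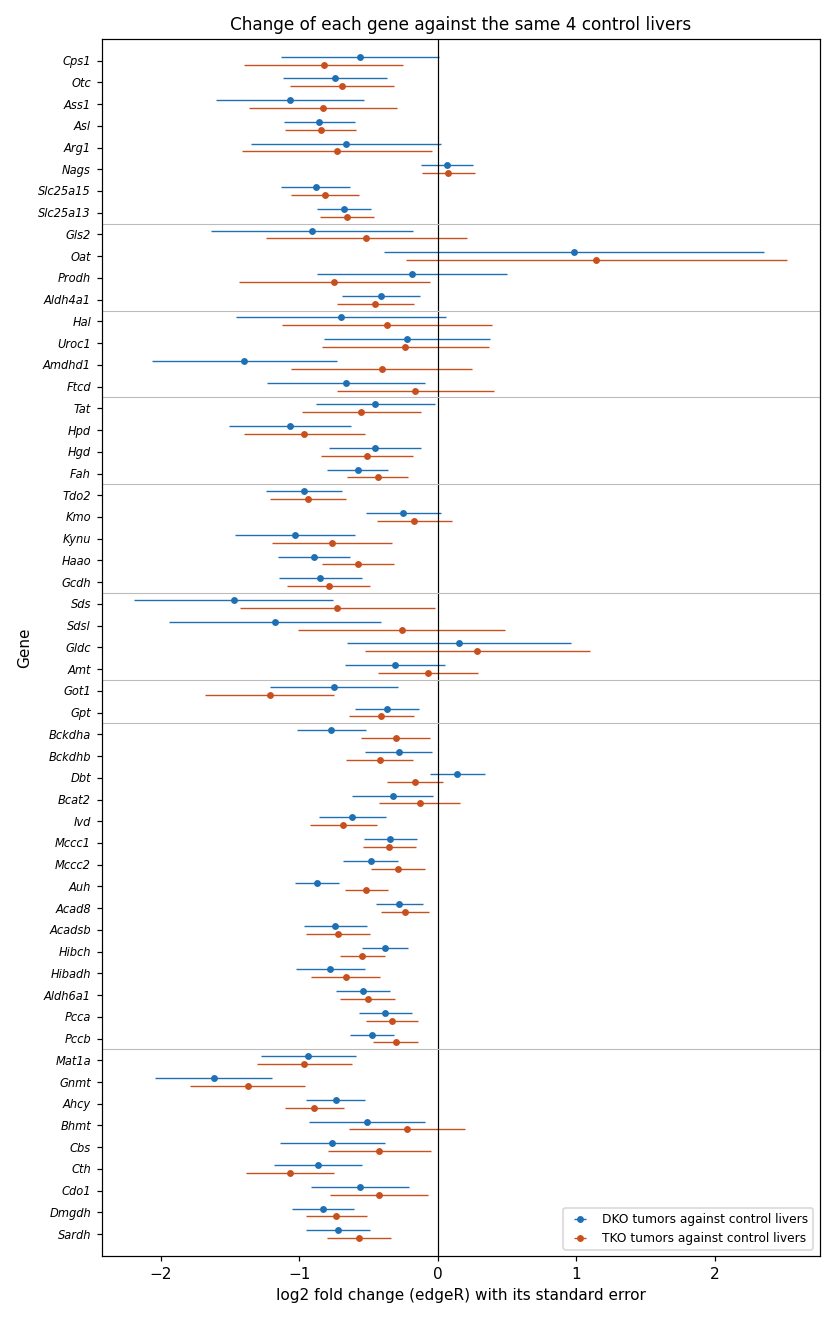
Fitted log2 fold change of each gene (rows, in pathway order) against the 4 control livers, with its standard error as a bar, for DKO tumors (blue) and TKO tumors (orange). Most points lie left of 0, from -1.62 (Gnmt, DKO) upward, and the widest bars belong to Oat, at 0.98 in DKO and 1.14 in TKO.

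The gene with the lowest fold change of the 55 in both genotypes belongs to methionine metabolism. Gnmt, which uses S-adenosylmethionine to methylate glycine, was measured at 709, 1139, 833 and 811 CPM in the controls, 341, 171, 339 and 288 in DKO and 201, 319, 679 and 150.2 in TKO. Every tumor lay below every control, and Gnmt fell in all tumors (log2 fold change -1.49, SE 0.34, adjusted p = 0.0454), with a log2 fold change of -1.62 (SE 0.42, adjusted p = 0.0604) in DKO and -1.37 (SE 0.42, adjusted p = 0.160) in TKO. Ahcy, which splits S-adenosylhomocysteine, stood at 675, 752, 668 and 758 CPM in the controls, 431, 358, 527 and 398 in DKO and 337, 341, 554 and 308 in TKO. These groups did not overlap either, and Ahcy fell in all tumors (log2 fold change -0.81, SE 0.18, adjusted p = 0.0444). Per kilobase of exon, Mat1a had the highest control level of the 55 genes, at 1553 CPM per kb, followed by Cdo1 at 1452 and Arg1 at 1137. Mat1a, the liver enzyme that makes S-adenosylmethionine, was at 5870.4, 4721, 4730.1 and 4602 CPM in the controls, 2134, 1516, 3505 and 3273 in DKO and 2402, 2579, 3679.9 and 1563 in TKO. All 8 tumors were again below all controls, and its adjusted p was 0.126 in DKO and 0.205 in TKO. The call of Gnmt and that of Ahcy each held without 3 of the 12 libraries left out singly (DKO 3, TKO 3 or TKO 4) and was lost without any 1 of the other 9, with an adjusted p of up to 0.147 for Gnmt and 0.146 for Ahcy. Without any 1 of those 9, 0% to 0.619% of all genes were called over all tumors. Ahcy has 2 near copies elsewhere in the genome, at least 200 bases at 95% identity or more, so reads could have been shared between them.

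The sulfur and choline branches varied more. Cbs, the first enzyme of transsulfuration, was at 288, 428, 421 and 275 CPM in the controls, 281, 193, 162 and 198 in DKO and 138, 352, 438 and 127 in TKO. Control and tumor values overlapped in both genotypes. Cdo1, which oxidizes cysteine, was at 1553, 3077, 2422 and 1832 CPM in the controls, 1840.2, 1290.3, 1012 and 1880.3 in DKO and 997, 1533, 2722 and 1363 in TKO. TKO 3 stood above every control for Cbs and inside their range for Cdo1. Bhmt, which returns the methyl group of betaine to homocysteine, was at 751, 1605, 563 and 338 CPM in the controls, 762, 460.1, 674 and 390.0 in DKO and 601, 630.0, 986 and 574 in TKO. Its controls alone spanned 338 to 1605 CPM, and its 2 near copies could take or give reads. Of the other 3 genes, Cth, Dmgdh and Sardh, the DKO log2 fold changes were -0.86, -0.82 and -0.72 and the TKO values -1.07, -0.73 and -0.57, with adjusted p from 0.0659 to 0.249.

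Among the 15 genes of branched-chain amino acid and propionate breakdown, DKO log2 fold changes ran from -0.87 (Auh) to 0.14 (Dbt), and TKO values from -0.72 (Acadsb) to -0.13 (Bcat2). Auh, the hydratase of leucine breakdown that also binds AU-rich RNA, was measured at 36.4, 42.9, 40.8 and 37.2 CPM in the controls, 17.5, 21.8, 22.3 and 24.3 in DKO and 21.0, 24.8, 33.1 and 31.1 in TKO. No tumor reached the lowest control. Auh fell in DKO (log2 fold change -0.87, SE 0.16, adjusted p = 0.0352) and in all tumors (log2 fold change -0.69, SE 0.13, adjusted p = 0.0405), and in TKO it had a log2 fold change of -0.52 (SE 0.16, adjusted p = 0.160). The DKO call was lost without control 2, control 3, control 4, DKO 1, DKO 2 or DKO 4, at an adjusted p of up to 0.126, and the call over all tumors without any 1 of the controls, DKO 1, DKO 2, TKO 1 or TKO 2, at up to 0.146. In those settings 0% to 0.0498% of all genes were called in DKO and 0% to 0.134% over all tumors. Auh was a low gene, at 4.11 CPM per kb in the controls.

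The branched-chain ketoacid dehydrogenase has a decarboxylase of Bckdha and Bckdhb and a core of Dbt. Bckdha was at 94.1, 205, 162 and 155 CPM in the controls, 70.3, 86.0, 94.1 and 111 in DKO and 106, 116, 176 and 99.7 in TKO. Only DKO 4 of the DKO tumors lay above the lowest control. Bckdhb was at 107, 138, 113 and 116 CPM in the controls, 70.8, 93.3, 85.6 and 140.3 in DKO and 66.6, 74.6, 81.2 and 132 in TKO, with DKO 4 above the control range and TKO 4 inside it. Dbt was at 102, 120.4, 136 and 132 CPM in the controls, 134, 164, 130.0 and 112 in DKO and 128, 139.7, 95.3 and 74.2 in TKO, and its groups overlapped. Acadsb, a dehydrogenase of isoleucine breakdown, was at 158, 156, 195 and 177 CPM in the controls, 92.7, 108, 120.3 and 90.4 in DKO and 84.2, 71.6, 165 and 96.5 in TKO. DKO values lay below the controls, TKO 3 did not. Bcat2, which starts the pathway outside the liver and is low in hepatocytes, was at 12.6, 24.7, 16.3 and 14.1 CPM in the controls, 16.3, 15.7, 11.1 and 10.9 in DKO and 9.29, 21.4, 19.7 and 11.3 in TKO. These groups overlapped throughout. The other 9 genes of the group, Ivd, Mccc1, Mccc2, Acad8, Hibch, Hibadh, Aldh6a1, Pcca and Pccb, had DKO log2 fold changes of -0.77 (Hibadh) to -0.28 (Acad8) and TKO values of -0.68 (Ivd) to -0.24 (Acad8). The group median of the log2 ratio lay between -0.63 and -0.41 in every tumor but TKO 3, where it was -0.05.

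**Figure D3:**
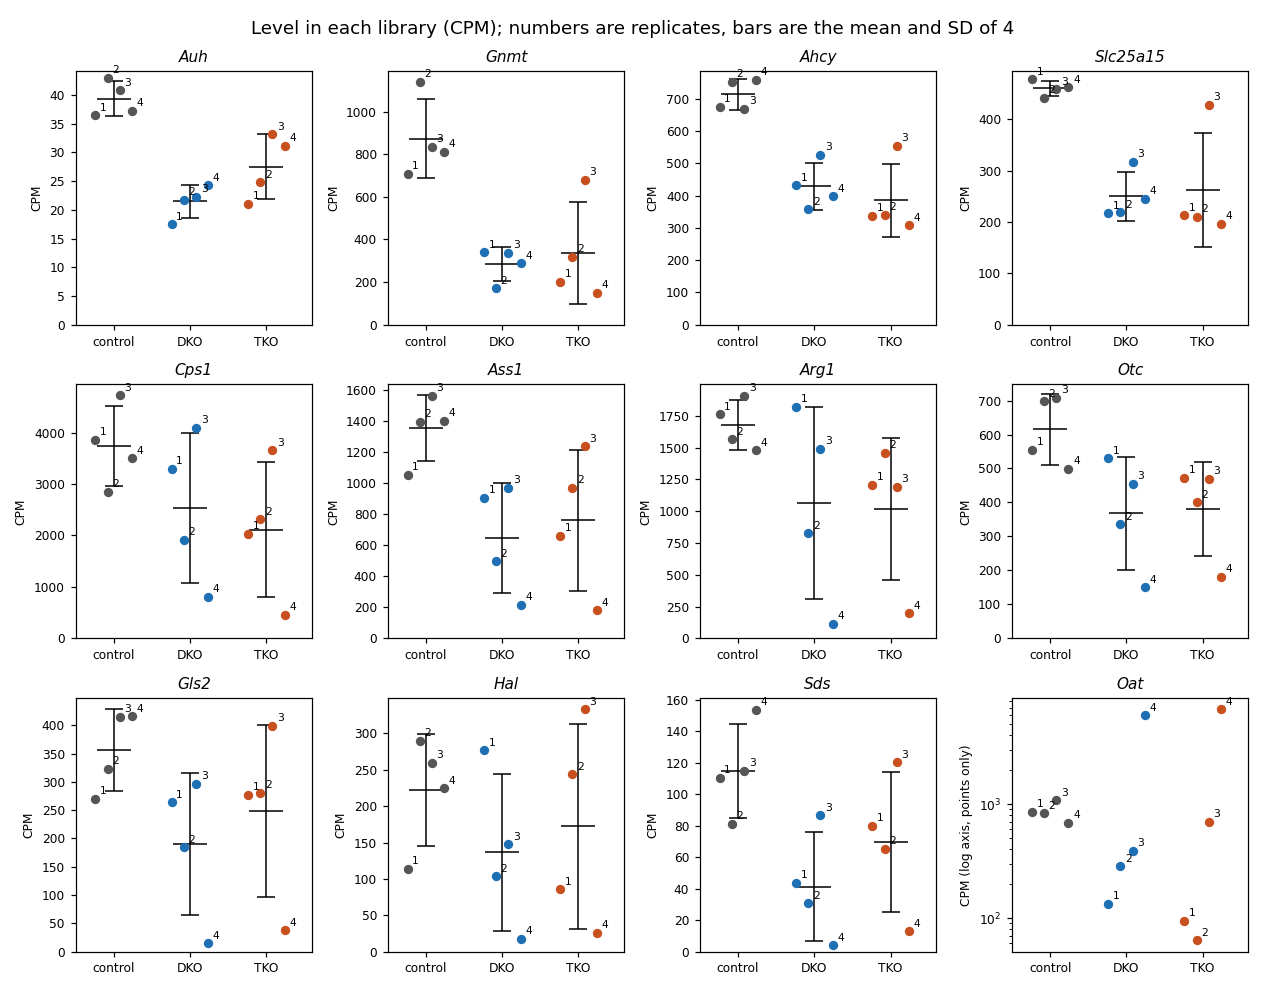
CPM in each library for 12 of the 55 genes by group, with replicate numbers at the points and the mean ± SD (n = 4) as bars, and for Oat points only on a log axis. Auh, Gnmt, Ahcy and Slc25a15 separate the tumors from the controls, whereas for Cps1, Ass1, Arg1, Gls2, Hal and Sds the lowest point in each tumor group is replicate 4, and for Oat the highest.

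The urea cycle begins with Cps1, which makes carbamoyl phosphate in mitochondria and was at 3859, 2852, 4727 and 3500.1 CPM in the controls, 3294, 1916, 4099 and 809.9 in DKO and 2029, 2315, 3654 and 453 in TKO. DKO 1, DKO 3 and TKO 3 lay inside the control range and the other 5 tumors below it, with TKO 4 and DKO 4 lowest. Otc, which joins carbamoyl phosphate to ornithine, was at 556, 698, 708 and 499 CPM in the controls, 530.1, 335, 455 and 150.2 in DKO and 472, 400.3, 469 and 181 in TKO. All TKO tumors were below all controls, and DKO 1 was not. Ass1, the next enzyme, was at 1057, 1397, 1566 and 1403 CPM in the controls, 905, 497, 972 and 216 in DKO and 661, 971, 1240.1 and 179 in TKO. Here the DKO tumors were all below the controls, and TKO 3 was not. Ass1 has 1 near copy in the genome. Asl, which releases arginine and fumarate, was at 297, 317, 299 and 372 CPM in the controls, 176, 136, 269 and 129 in DKO and 165, 194, 237 and 120.5 in TKO. The 8 tumors were all below the 4 controls, with a log2 fold change of -0.85 (SE 0.26, adjusted p = 0.0806) in DKO and -0.84 (SE 0.26, adjusted p = 0.160) in TKO. Arg1, which releases urea, was at 1761, 1565, 1909 and 1479 CPM in the controls, 1822, 826, 1489.7 and 112 in DKO and 1209, 1461, 1192 and 196 in TKO. DKO 1 and DKO 3 were inside the control range, all TKO tumors were below it, and DKO 4 and TKO 4 were lowest. Nags, which makes the activator of Cps1, was at 41.1, 43.4, 48.7 and 49.1 CPM in the controls, 53.7, 45.3, 33.9 and 58.0 in DKO and 38.6, 57.6, 57.4 and 38.7 in TKO. Its groups overlapped, with a log2 fold change of 0.07 (SE 0.19, adjusted p = 0.861) in DKO. Exons of 10 of the 55 genes, among them Nags, Gls2, Sds, Bcat2 and Bhmt, overlap a gene on the other strand, and the strand setting of the counting is not given in the sources used here.

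Of the carriers, Slc25a15 moves ornithine into mitochondria and Slc25a13 moves aspartate out. Slc25a15 was at 478, 442, 458 and 462 CPM in the controls, 217, 219, 318 and 245 in DKO and 213, 210.0, 428 and 197 in TKO. The 4 controls lay within 442 to 478 CPM and every tumor was below them, TKO 3 by the least, with a log2 fold change of -0.88 (SE 0.25, adjusted p = 0.0726) in DKO. Slc25a13 was also below all controls in all 8 tumors, with a log2 fold change of -0.68 (SE 0.20, adjusted p = 0.0751) in DKO and -0.65 (SE 0.19, adjusted p = 0.156) in TKO. Among the 8 genes of the urea cycle group 0 were called by edgeR in either genotype, 3 were lower at an unadjusted p under 0.05 in each (11.1% of all genes in DKO, 6.33% in TKO), and DESeq2 called 3 lower in each (4.75% and 1.49%), which were Asl, Slc25a15 and Slc25a13 in both.

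Glutamine and ornithine metabolism gave the widest spread. Gls2, liver glutaminase, which frees ammonia from glutamine, was at 269.7, 323, 415 and 416 CPM in the controls, 264, 184, 296 and 15.1 in DKO and 277, 281, 399 and 37.8 in TKO. DKO 4 and TKO 4 were the lowest, and DKO 3, TKO 1, TKO 2 and TKO 3 were inside the control range. Oat, which turns ornithine into glutamate semialdehyde, was at 851, 827, 1079.6 and 687 CPM in the controls, 134, 284, 389 and 5998 in DKO and 95.1, 64.0, 698 and 6758 in TKO. DKO 4 and TKO 4 lay above every control, DKO 1 to 3, TKO 1 and TKO 2 lay below every control, and TKO 3 lay inside the range. The fitted Oat log2 fold changes of 0.98 (SE 1.37, adjusted p = 0.696) in DKO and 1.14 (SE 1.37, adjusted p = 0.731) in TKO rest on the replicate 4 libraries: without both of them, a choice made after seeing the data, they were -1.68 and -1.61. Prodh, which starts proline breakdown, was at 156, 224, 153 and 215 CPM in the controls, 53.7, 49.5, 143 and 410.4 in DKO and 44.0, 38.7, 123 and 240.2 in TKO. It was highest in DKO 4 and TKO 4 too. Aldh4a1, the enzyme on which proline and ornithine breakdown converge, had a log2 fold change of -0.41 (SE 0.28, adjusted p = 0.398) in DKO and -0.45 (SE 0.28, adjusted p = 0.456) in TKO.

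The histidine pathway was at or near the control level in several tumors. Hal, which removes ammonia from histidine, was at 114, 290.1, 259.9 and 225 CPM in the controls, 277, 104, 148 and 18.04 in DKO and 85.7, 244, 333 and 26.3 in TKO. DKO 1, DKO 3 and TKO 2 were inside the control range and TKO 3 above it, and DKO 4 and TKO 4 were the lowest. Uroc1, the next enzyme, was at 286, 395, 449 and 549 CPM in the controls, 704, 272, 392 and 71.3 in DKO and 405, 535, 405 and 82.6 in TKO. Amdhd1, the third, was at 96.9, 262, 193 and 103 CPM in the controls, 119, 57.2, 54.2 and 18.3 in DKO and 73.6, 156, 243 and 22.2 in TKO. Ftcd, which passes the formimino group to folate, was at 163, 307, 328 and 306 CPM in the controls, 285, 160.2, 218 and 32.9 in DKO and 270.4, 340.4, 307 and 67.4 in TKO. In all 4 genes DKO 4 and TKO 4 had the lowest values of the 12 libraries, with median log2 ratios of -3.02 and -2.53 over the pathway, while DKO 1 had 0.25, TKO 2 had 0.29 and TKO 3 had 0.44. Without both replicate 4 libraries, the fitted log2 fold change of Uroc1 was 0.12 in DKO and 0.08 in TKO.

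Of the 4 genes of serine and glycine breakdown, Sds, Sdsl and Gldc were lowest in DKO 4 and TKO 4, and Amt was not. Sds, serine dehydratase, was at 110.4, 81.1, 115 and 154 CPM in the controls, 44.0, 30.9, 86.7 and 4.19 in DKO and 80.2, 65.2, 120.3 and 13.1 in TKO. DKO 4 and TKO 4 were the lowest, and DKO 3 and TKO 3 were inside the control range. Sdsl, its relative, was a low gene at 0.236 to 7.39 CPM, lowest in DKO 4 and TKO 4. Gldc, the decarboxylase of the glycine cleavage system, was at 52.4, 137, 94.4 and 61.0 CPM in the controls, 189, 86.5, 102 and 6.01 in DKO and 87.4, 139, 181 and 12.9 in TKO. DKO 1, TKO 2 and TKO 3 lay above every control and DKO 4 and TKO 4 below every control, so its fitted log2 fold change of 0.15 (SE 0.81, adjusted p = 0.928) in DKO averages libraries that lie on both sides of the controls. Amt, the aminomethyltransferase of the same system, was at 36.0, 95.3, 60.4 and 41.6 CPM in the controls, 57.7, 60.6, 25.5 and 44.0 in DKO and 41.6, 57.9, 85.1 and 36.8 in TKO. The lowest library was DKO 3, and DKO 4 and TKO 4 were inside the control range. Amt had a log2 fold change of -0.31 (SE 0.36, adjusted p = 0.636) in DKO and -0.07 (SE 0.36, adjusted p = 0.948) in TKO.

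Of the general transaminases, Got1, the cytosolic aspartate aminotransferase, was at 258, 223, 222 and 124 CPM in the controls, 144, 125, 167 and 54.5 in DKO and 73.6, 108, 149.6 and 25.5 in TKO. TKO 4 was the lowest library. Gpt, alanine aminotransferase, was at 171, 262, 233 and 265 CPM in the controls, 232, 134, 188 and 169 in DKO and 176, 243, 159 and 125 in TKO. Its values overlapped between groups, with a log2 fold change of -0.37 (SE 0.23, adjusted p = 0.360) in DKO and -0.41 (SE 0.23, adjusted p = 0.415) in TKO.

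Of the tyrosine breakdown genes, Hpd and Hgd were inside the control range in DKO 4 and below it in DKO 1 to 3. Tat, the transaminase that starts it, was at 1322, 521, 1008 and 1359 CPM in the controls, 459.6, 473, 1017 and 1130.4 in DKO and 481, 666, 1257 and 465 in TKO. Hpd, the next enzyme, was at 837, 1662, 1307 and 1048 CPM in the controls, 322, 402, 580.3 and 1016 in DKO and 302, 415, 1043 and 732 in TKO. DKO 1, TKO 1, TKO 2 and DKO 2 had the lowest Hpd values, and DKO 4 and TKO 3 were inside the control range. Hgd, which opens the ring, was at 587, 713, 662 and 511 CPM in the controls, 288, 411, 432 and 679 in DKO and 272, 262, 554 and 644 in TKO. Fah, the last enzyme, was at 407, 664, 549 and 529 CPM in the controls, 383, 300.3, 386 and 370.4 in DKO and 332, 407, 551 and 301 in TKO. All 4 DKO values of Fah lay below the controls. The median log2 ratio over the 4 genes was -1.10, -0.94, -0.48 and -0.03 in DKO 1 to 4 and -1.10, -0.90, -0.04 and -0.75 in TKO 1 to 4.

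In tryptophan breakdown, Tdo2, the dioxygenase that starts the kynurenine pathway in liver, was at 1152, 1498, 1694 and 1146 CPM in the controls, 883, 586, 840.2 and 505 in DKO and 673, 576, 1046 and 578 in TKO. All 8 tumors lay below all controls, with a log2 fold change of -0.96 (SE 0.27, adjusted p = 0.0737) in DKO and -0.93 (SE 0.27, adjusted p = 0.150) in TKO. Kynu, which cleaves kynurenines, was at 165, 188, 164 and 101 CPM in the controls, 110.2, 68.9, 89.8 and 33.4 in DKO and 82.6, 91.6, 158 and 31.9 in TKO. DKO 4 and TKO 4 were the lowest, and DKO 1 and TKO 3 were inside the control range. Kmo, the hydroxylase between the 2, was at 256, 329.9, 235 and 266 CPM in the controls, 382, 167, 224 and 142 in DKO and 271, 216, 267 and 212 in TKO, and its groups overlapped. Haao, which makes the precursor of quinolinate, had a log2 fold change of -0.89 (SE 0.26, adjusted p = 0.0773) in DKO and -0.58 (SE 0.26, adjusted p = 0.297) in TKO. Gcdh, which acts on glutaryl-CoA from lysine and tryptophan, had a log2 fold change of -0.85 (SE 0.30, adjusted p = 0.115) and -0.79 (SE 0.30, adjusted p = 0.226).

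Levels of zonation markers were set beside these values. Glul was at 653, 781, 607 and 463 CPM in the controls, 223, 3138, 473 and 7472 in DKO and 256, 213, 574 and 10331 in TKO. DKO 4 and TKO 4 had the highest levels and DKO 2 the next. The other Wnt-linked pericentral markers Axin2, Lgr5 and Rhbg were above every control in the same 3 libraries, with Rhbg at 81.7 CPM in DKO 2, 143 in DKO 4 and 276 in TKO 4 against 7.25 to 10.8 in the controls. The summed level of the 13 pericentral markers was 24457 CPM in DKO 4 and 33852 in TKO 4, against 9765 to 16008 in the controls, 12119 in DKO 2 and 9854 in TKO 3. It was 1301 in DKO 1, 4580 in DKO 3, 2482 in TKO 1 and 2058 in TKO 2. The summed level of the 8 periportal markers was 1166 CPM in DKO 4, 1046 in TKO 4 and 2162 in DKO 2, against 4891 to 6795 in the controls and 3980 to 5991 in the other 5 tumors. Cyp2f2, a periportal cytochrome, was at 827, 1061, 1575 and 1719 CPM in the controls, 2256, 437, 1739.8 and 79.3 in DKO and 1555, 815, 1529 and 207 in TKO. None of the 8 periportal and none of the 13 pericentral markers was called by edgeR or by DESeq2 in DKO or in TKO. At an unadjusted p under 0.05 there were 0 periportal markers in either genotype, and 0 pericentral markers in DKO and 3, all higher, in TKO. Of all genes 12.9% were higher and 11.1% lower in DKO by that cutoff, and 9.94% and 6.33% in TKO. The highest DKO log2 fold changes of pericentral markers were 2.77 (Rhbg), 2.18 (Glul) and 1.71 (Lgr5) and the lowest -0.90 (Cyp2e1), -0.51 (Cyp27a1) and -0.39 (Rgn). Among periportal markers they ran from -1.43 (Pck1), -0.78 (Pigr) and -0.60 (G6pc) to -0.20 (Cyp2f2 and Hsd17b6) and 0.79 (Aldh1b1). DKO 2 had high Glul but not high Oat, at 284 CPM. The part of zonation in the values of the 55 genes was not tested.

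**Figure D4:**
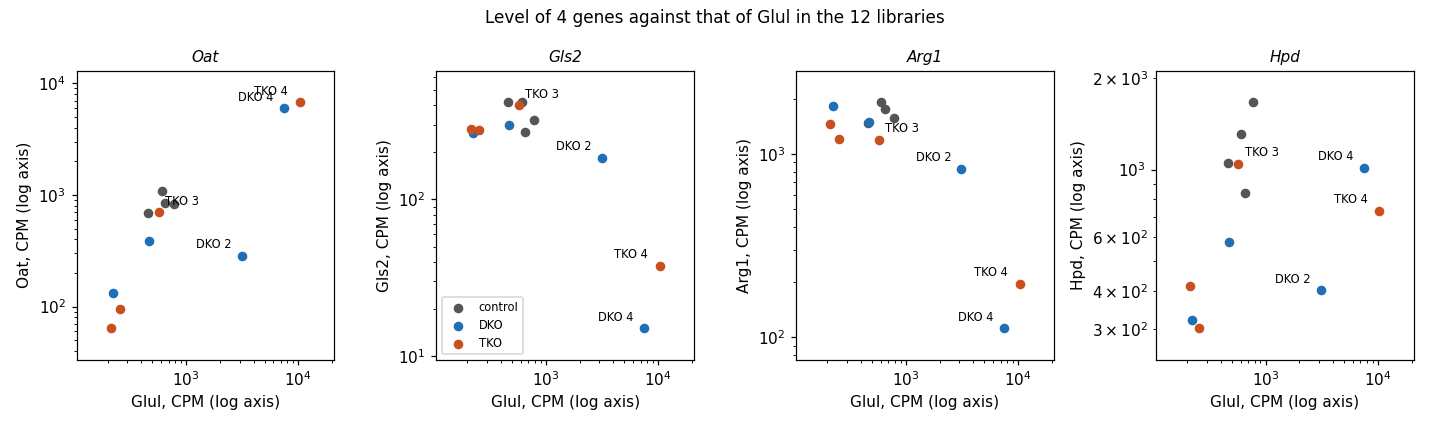
Level of Oat, Gls2, Arg1 and Hpd (vertical) against that of Glul (horizontal) in the 12 libraries, in CPM on log axes, with points colored by group and the 3 tumors of highest Glul and TKO 3 named. DKO 4 and TKO 4 join high Glul with high Oat and low Gls2 and Arg1, DKO 2 has high Glul with Oat of 284 CPM, and Hpd is lowest in TKO 1, at 302 CPM.

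Of the lists of markers of other cell types, edgeR called no gene. DESeq2 called 2 endothelial markers, Pecam1 and Lyve1, higher in DKO (5.7% of all genes) and 0 of the others in either genotype. Over all tumors it called 2 endothelial and 1 kidney and muscle marker higher, beside 9.49% of all genes in either direction. At an unadjusted p under 0.05 edgeR had 2 endothelial markers higher in DKO (12.9%) and 1 in TKO (9.94%), and 1 lymphocyte marker lower in DKO (11.1%). Of the 3 kidney and muscle markers tested, 1 was higher in DKO (12.9%), and 1 was higher (9.94%) and 1 lower (6.33%) in TKO. The summed level of 7 Kupffer cell and macrophage markers was 198 to 527 CPM in the controls, 65.4 to 446 in DKO and 135 to 593 in TKO. That of 7 stellate cell and fibroblast markers was 237 to 344, 147 to 519 and 201 to 359, and that of 6 endothelial markers 112 to 173, 138 to 199 and 152 to 286. Lymphocyte markers summed to 10.3 to 32.0, 8.79 to 27.3 and 11.2 to 18.03 CPM, and kidney and skeletal muscle markers to 10.8 to 15.7, 14.9 to 24.9 and 13.7 to 20.2. The sum of the hepatocyte markers was 124377 to 185311 CPM in the controls, 178057 to 437651 in DKO and 73579 to 320929 in TKO. Of the tumors TKO 4 alone lay below every control in that sum, and DKO 1, DKO 2, TKO 1 and TKO 2 lay above every control. The sum of 6 proliferation markers was 8.11 to 19.99 CPM in the controls, 22.3 to 103 in DKO and 12.3 to 61.6 in TKO. TKO 3 alone of the tumors lay inside the control range in this sum. Of the 6 proliferation markers Mki67 rose in DKO by edgeR (log2 fold change 2.89, adjusted p = 0.0425), beside 2.42% of all genes called in either direction. That call was lost without control 2 or control 3, where edgeR called 0% of all genes in DKO. All 6 were higher in DKO at an unadjusted p under 0.05 (12.9% of all genes) and 4 in TKO (9.94%), and DESeq2 called 5 higher in DKO (5.7%) and 1 in TKO (2%). The median log2 fold change of the 6 was 1.94 in DKO and 1.42 in TKO. The part of cell content or proliferation in the lower values of the 55 genes was not tested.

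Further genes of amino acid metabolism were 66 listed by name, of which 62 were tested. Their DKO log2 fold change was below 0 in 48 of 62 with a median of -0.35, and 1 was called lower, 0 higher. This was Echs1, a hydratase of fatty acid and branched-chain breakdown (-0.71, adjusted p = 0.0480), beside 1.01% of all genes called lower. Its call was lost without control 2 or control 3, where edgeR called 0% of all genes in DKO. At an unadjusted p under 0.05, 21 were lower (11.1% of all genes) and 5 higher (12.9%) in DKO, and DESeq2 called 11 lower (4.75%) and 5 higher (5.7%). In TKO edgeR called 0, with 13 lower (6.33%) and 2 higher (9.94%) at an unadjusted p under 0.05, and DESeq2 called 4 lower (1.49%) and 0 higher. For all tumors Echs1 (-0.60, adjusted p = 0.0454) and Aass, which starts lysine breakdown (-0.86, adjusted p = 0.0454), were called lower, beside 1.22% of all genes. Both calls were lost without control 2, control 3, TKO 1 or TKO 2, where edgeR called 0% of all genes over all tumors. Of 13 amino acid transporters edgeR called 0 in either genotype, with 4 lower and 2 higher in DKO and 1 lower and 1 higher in TKO at an unadjusted p under 0.05. DESeq2 called 3 lower and 1 higher in DKO and 0 in TKO. The shares of all genes by these cutoffs are those given above for each genotype. Transporter DKO log2 fold changes ran from -1.24 (Slc7a2), -0.93 (Slc38a4) and -0.72 (Slc38a3) to 0.85 (Slc6a9), 0.98 (Slc7a5) and 1.35 (Slc1a2). Slc1a2, a glutamate transporter, was at 2889.6 CPM in TKO 4 against 49.5 to 120 in the controls. Among 11 fasting and glucocorticoid response genes Igfbp1, a secreted binder of insulin-like growth factors, rose in DKO (3.51, adjusted p = 0.0425). Among 12 ATF4 target genes Ddit3 (1.51, adjusted p = 0.0460) and Atf3 (2.85, adjusted p = 0.0333), both stress-induced transcription factors, rose in DKO. edgeR called 2.42% of all genes in DKO in either direction. The calls of Igfbp1, Ddit3 and Atf3 were lost without control 2 or control 3, where 0% of all genes were called. At an unadjusted p under 0.05, 3 fasting genes were higher (12.9% of all genes) and 1 lower (11.1%) in DKO and 2 higher in TKO (9.94%). By the same cutoff 6 ATF4 target genes were higher in each genotype (12.9% and 9.94%). DESeq2 called 2 fasting genes higher (5.7%) and 1 lower (4.75%) in DKO and 1 higher in TKO (2%). It called 3 ATF4 target genes higher in DKO (5.7%) and 2 in TKO (2%). Psat1, Phgdh and Psph, which make serine, had DKO log2 fold changes of 1.46, 2.59 and 1.04 with adjusted p from 0.114 to 0.202.

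The 2 tumor genotypes were compared directly to see what loss of Rb1 added. edgeR called 0 of the 55 genes between TKO and DKO and 0% of all 13882 tested genes, and DESeq2 called 0 of the 55, beside 0.398% of all genes. The log2 fold changes ran from -0.56 (Prodh) to 0.99 (Amdhd1), with a median of 0.07, and 17 of 55 were below 0, beside 48.8% of all genes. At an unadjusted p under 0.05, 0 of the 55 genes were lower in TKO than in DKO, beside 3.84% of all genes. By that cutoff 1 gene, Auh, was higher in TKO (log2 fold change 0.36, SE 0.16, adjusted p = 0.554). The share of all genes higher is not given, so this count has nothing to be set against. In 0 of the 55 genes did the 2 groups separate, beside 2.12% of all genes with TKO below DKO and 2.75% above. The precision differed widely between genes, as the difference for Oat (0.16, SE 1.36, adjusted p = 0.978) and that for Pccb (0.17, SE 0.16, adjusted p = 0.764) show, and a p that misses the threshold does not show that the genotypes are alike.

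Promoter sequences are shown for Gnmt, which had the lowest fold change, and for Oat, which had the widest range among tumors, to give the sequence context of the start site. They are RefSeq windows of 250 bases before to 50 bases after the annotated start, in GRCm38.p6, read 5′ to 3′ on the gene's strand, and 43 of the 55 genes had such an entry. The Gnmt window is chr17:46729116-46729415 on the minus strand and the Oat window chr7:132576349-132576648 on the minus strand. Capitals mark matches on either strand to CCAAT, the CCAAT box, and to TGACG, the core of the CRE, a cAMP response element.
Gnmt: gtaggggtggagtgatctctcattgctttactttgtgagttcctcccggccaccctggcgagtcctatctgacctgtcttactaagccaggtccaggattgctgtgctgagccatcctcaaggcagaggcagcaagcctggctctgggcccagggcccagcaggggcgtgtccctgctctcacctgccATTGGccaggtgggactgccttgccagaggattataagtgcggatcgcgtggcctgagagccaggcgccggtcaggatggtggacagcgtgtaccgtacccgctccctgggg
Oat: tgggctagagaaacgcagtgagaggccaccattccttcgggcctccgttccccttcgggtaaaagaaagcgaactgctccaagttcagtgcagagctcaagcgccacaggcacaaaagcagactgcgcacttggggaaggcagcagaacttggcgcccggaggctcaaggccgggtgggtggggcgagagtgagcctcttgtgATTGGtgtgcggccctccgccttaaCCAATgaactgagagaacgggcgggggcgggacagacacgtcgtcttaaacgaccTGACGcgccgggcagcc
Gnmt has 1 CCAAT match, on the other strand, and Oat has 2 CCAAT matches, 1 on each strand, and 1 TGACG match. Neither holds CTTTGAT, the TCF/LEF core, or TATAAA, the TATA box. Among the 43 windows CCAAT was found in 55.8% (38.9% of the 10424 windows of tested genes), TGACG in 11.6% (30.9%), TATAAA in 9.3% (7.68%) and CTTTGAT in 6.98% (2.6%), the last in Haao, Hal and Nags. These are matches of letters and were not tested. In the genome build of the counts (mm9) the whole Gnmt gene spans chr17:46862613-46866117 and Oat chr7:139749158-139768081, both on the minus strand, and Auh spans chr13:52930488-53025050, also on the minus strand.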

How the data were processed

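The deposited values are counts, whole numbers of reads per Entrez gene. The authors mapped SOLiD reads to mm9 with BWA and counted them with featureCounts, per the submitters' processing notes, and made no normalization. How strand and multi-mapping reads were handled, and tool versions, are not given in the sources used here. Of the Entrez identifiers 24191 had a RefSeq symbol, with 99.4% of the counts.

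Groups follow the sample labels. edgeR 4.0.16 (R 4.3.3) was fitted to all 12 libraries with TMM factors, filterByExpr and 1 mean per group, and its quasi-likelihood test was adjusted by Benjamini-Hochberg over 13882 genes, two-sided, with calls at 0.05. On simulated counts for DKO versus control over 13882 genes, 200 of them changed, 96.5% of the changed genes were found, 2.53% of calls were false, and no change gave 0 calls. DESeq2 1.42.0, the tool named by the study, limma 3.58.1 (voom with quality weights), other scalings, filters and library sets served as alternatives. The log2 ratios use a prior count of 2. Libraries of a group differed far beyond counting noise, by a chi-square of 19.9 to 370.0 per degree of freedom.

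The genes and lists were chosen with earlier results of these data known. Values in every library are given for genes called, for defining enzymes of each pathway and for the highest and lowest fold change of each pathway. Those of Slc25a15 and Amt are given outside this rule. For the other lists, genes called are named, or else the 3 highest and 3 lowest DKO fold changes. This was done for transporters and zonation markers, whereas other cell type lists are given as sums. Library values of Cyp2f2, Rhbg and Slc1a2 and the serine synthesis genes were chosen after their values were seen. Gene positions are those of mm9 (GENCODE vM1), matched by symbol. The summed level of another marker list is not reported here.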

Additional observations from a re-analysis of the deposited data

Results flagged for a closer look

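In each group of 4 libraries, the gap in log2 CPM between the most extreme library and its neighbor was divided by the log2 CPM range of the group. Of 165 groups 11 exceeded Dixon's critical value, where chance flags about 5% of groups. Low values in replicate 4 tumors made up 5 of them: Gls2 in DKO 4 (0.84) and, in TKO 4, Arg1 (0.899), Gls2 (0.845), Uroc1 (0.851) and Ftcd (0.858). High values in TKO 3 made up 2, Slc25a15 (0.898) and Haao (0.923), the latter at 326 CPM against 165 to 174 in the other TKO tumors. Fah in DKO 2 was low (0.837), at 300.3 CPM against 370 to 386. Control 1 was low for Ftcd (0.902) and Ivd (0.899) and high for Mat1a (0.887), at 5870 CPM against 4602 to 4730.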

How the results depend on the processing

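The median log2 fold change of the 55 genes stayed below 0 under every alternative run, from -0.78 to -0.61 in DKO, -0.78 to -0.34 in TKO and -0.77 to -0.51 over all tumors, and every call was a lower value. The number called in DKO, TKO and all tumors was 1, 0 and 3, beside 2.42%, 0.0864% and 2.48% of all genes in either direction. With DESeq2 it was 15, 9 and 18 (10.4%, 3.49% and 9.49% of all genes), and with total counts 0, 0 and 0 (0.425%, 0.0648% and 0.439%). With voom and quality weights it was 21, 0 and 20 (13%, 0.699% and 13.1%). With a sex-linked covariate it was 0, 0 and 0 (0.0432%, 0.036% and 0.0288%). At an adjusted p under 0.1 it was 13, 0 and 18, for which the share of all genes is not given. The number was 5 over all tumors with DESeq2 size factors (2.43%), 6 with 10 counts in every library (3.29%), and 8 in DKO with the compared groups alone (5.65%). Leaving out 1 library gave 0 to 9 (0% to 4.6% of all genes), 0 to 7 (0% to 1.63%) and 0 to 16 (0% to 7.19%). With total counts the median log2 fold change of all genes was 0.17 in TKO, against 0.02. With the replicate number as a block, 4, 0 and 13 were called (3.67%, 0.0072% and 3.18% of all genes). Same-numbered libraries correlated at -0.174 to 0.37, and 6 of 12 matched best with their own number. The sample labels give no pairing by number, and whether same-numbered libraries share more than a number was not tested. The column labels also carry codes with letters that recur. Control 1 and DKO 2 share b, and control 2, control 3 and TKO 1 share e. Control 4, DKO 3 and TKO 4 share j. What the letters stand for is not given in the sources used here, and no fit used them. Control 2 and control 3 were the closest controls, at a chi-square of 19.9 per degree of freedom, against 62.7 to 74.3 for the other pairs. The cause of the differences in the number called was not tested.

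Of 2479 values of single genes, 2324 kept direction and side of the threshold, 71 gained and 43 lost the call, and 41, in 10 genes, changed sign, none at an adjusted p under 0.05. Under the block, voom and the removal of DKO 4 and TKO 4 (chosen after seeing the data), Oat was -1.37, -1.37 and -1.68 in DKO and -1.53, -1.77 and -1.61 in TKO. Gldc was -0.52 (block), -0.10 (voom) and -0.17 (sex-linked covariate) in DKO and -0.33 (block) in TKO. Without DKO 4 and TKO 4, Nags was -0.048 and Uroc1 0.12 in DKO, and Amt was 0.063, Uroc1 0.076, Ftcd 0.13 and Sdsl 0.092 in TKO. With total counts, Amt was 0.089 and Bcat2 0.011 in TKO. Leaving out 1 library gave, in DKO, Amt -0.49 to 0.029, Bhmt -0.77 to 0.054, Gldc -0.42 to 0.55, Nags -0.041 to 0.20, Oat -1.68 to 1.35, Prodh -1.18 to 0.12 and Uroc1 -0.79 to 0.12. In TKO it gave Amt -0.36 to 0.27, Bcat2 -0.33 to 0.10, Bhmt -0.48 to 0.34, Ftcd -0.36 to 0.14, Gldc -0.11 to 0.65, Nags -0.024 to 0.16, Oat -1.60 to 1.55, Sdsl -0.62 to 0.10 and Uroc1 -0.50 to 0.088. Sdsl, a low gene, had 4 to 101 counts per library.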
